A study of Nicotiana tabacum with 54 samples.

Results

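Va116 and GDH88 are 2 tobacco (Nicotiana tabacum) materials, and their transcriptomes were compared in leaf, stalk and root of plants whose flower heads had been removed (topping). Each material had 3 libraries in each tissue, so 18 of the 54 libraries of the series enter the comparison. The labels give the genotype by name only, with no treatment other than topping, and the study's methods state 3 plants per replicate. Nothing says that the 3 libraries of a group came from separate plots or days, so p-values measure the spread between these libraries. The deposited columns are numbered 1 to 3, and each library carries its material's name and that number below.

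Leaf, stalk and root of a plant carry the same genome but transcribe different sets of genes. A line can differ from another in the level of a transcript or in whether the transcript is found at all. Reads are assigned to gene models of a reference annotation, so a value of 0 says that no read was assigned to that model, and not that the gene is missing from the genome. Values are FPKM, read abundance scaled by transcript length and library size. The files identify genes by Nitab4.5 numbers without names, in which the digits before the "g" give the scaffold and those after it the order of the gene along it. The reference table held none of these identifiers, so roles can be given only for the glutathione S-transferases (NtGST) that the study named.

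Within each tissue a gene was kept if at least 3 of the 6 libraries had 1 FPKM or more. Of 69500 genes, leaf kept 33645, stalk 33184 and root 34519, and 28340 were kept in all 3 tissues. A gene was called higher or lower in Va116 at an adjusted p under 0.05 (limma on log2(FPKM + 1), Benjamini-Hochberg). Fold changes on this scale understate the change of genes with low values. The files hold no read counts, so depth is unknown. The 18 libraries had 30999 to 34311 genes at 1 FPKM or more, and the 54 of the series 30198 to 37004. All 54 correlated best with a library of their own tissue.

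Each library was first compared with its label. Genes that differ among the 6 materials in the other tissues served as a signature, and the correlation of a library with each material's signature was taken. All 6 leaf libraries matched their own material, with r from 0.786 to 0.858. In stalk, the library labelled GDH88 1 matched no material well: r was 0.11 with GDH88, 0.24 with Basma and 0.20 with HxB, against 0.80 and 0.82 with GDH88 for the libraries GDH88 2 and 3. In root, the library labelled GDH88 2 gave r = -0.32 with GDH88, 0.48 with VxG88 and 0.27 with Va116, while GDH88 1 and 3 gave 0.79 and 0.85 with GDH88. The other 16 libraries of Va116 and GDH88 matched their labels, the lowest being stalk Va116 3 at 0.63. The results of stalk and root are therefore given with and without stalk GDH88 1 and root GDH88 2, called doubtful below. This choice was made after the data had been seen. Leaf is part of the signatures used for stalk and root, so leaving these libraries out favours agreement with leaf by itself.

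**Figure D1:**
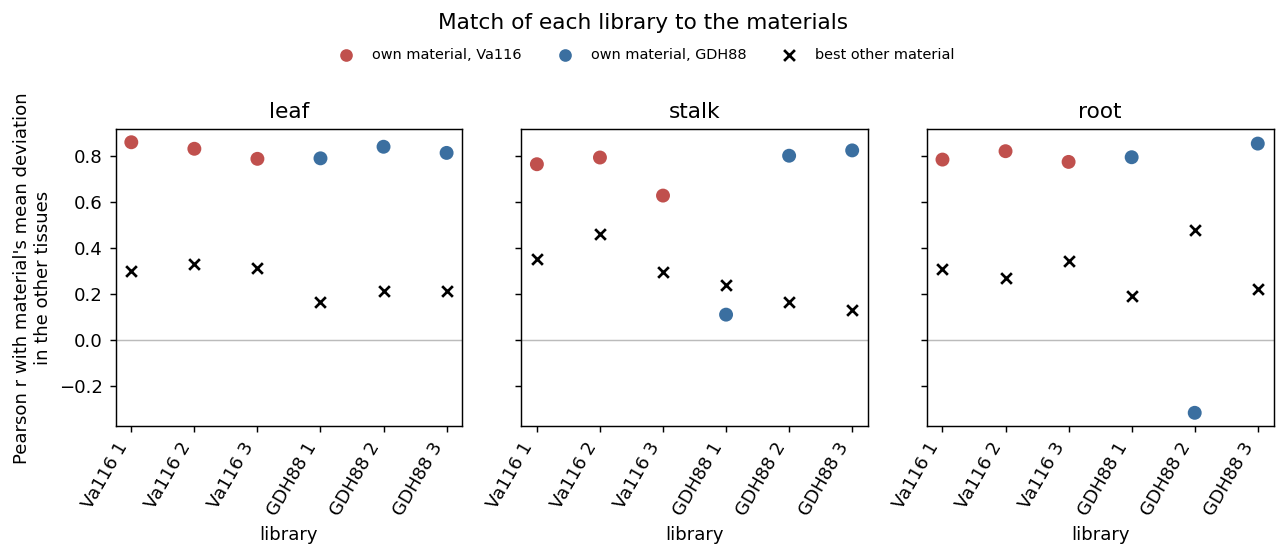
Pearson correlation (vertical axis, no unit) of each Va116 and GDH88 library with the signature of its own material (filled circles) and with the best of the other 5 materials (crosses), in leaf, stalk and root. The cross lies above the circle for stalk GDH88 1 (0.24 against 0.11) and root GDH88 2 (0.48 against -0.32) and below it for the other 16 libraries.

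The materials differed by the most called genes in leaf, where 166 genes were called (0.493% of those tested), 68 higher and 98 lower in Va116. In stalk 5 genes were called (0.0151%), all lower in Va116, and in root 9 (0.0261%), all lower. At an unadjusted p under 0.05 leaf had 2137 genes, stalk 1882 and root 1832, or 6.35%, 5.67% and 5.31% of those tested. The log2 fold change of each of the 166 leaf genes was 1 or more in size, and that of 112 was 2 or more, with medians of 2.57 for the higher and -2.46 for the lower genes. Their median level was 4.94 FPKM, against 8 FPKM for all genes tested in leaf. Of the 166, 116 were among the 287 genes that passed the filter through the 3 libraries of 1 material alone, and such genes had to differ. In stalk all 5 called genes were among 218 such genes, and in root 7 of the 9 were among 216.

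The counts in stalk and root depended on single libraries. Without stalk GDH88 1, 9 genes were called in stalk (0.0271%), 1 higher and 8 lower. Without root GDH88 2, 32 were called in root (0.0927%), 18 higher and 14 lower. The stalk count was 15 without Va116 1 and 0 without any of the other 4 libraries, and the root count was 0 or 1 without any library other than GDH88 2. In leaf, 70 to 111 genes were called with 1 library left out, the highest without GDH88 2. Whether the number of called genes differs between tissues was not tested.

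Across the whole transcriptome, a test of the distance between Va116 and GDH88 libraries against that between libraries of 1 material did not pass in any tissue. The median absolute difference in log2(FPKM + 1) averaged 0.380 between materials and 0.379 within them in leaf, 0.429 and 0.412 in stalk, and 0.392 and 0.389 in root. The exact permutation test over the 10 splits of 6 libraries gave p = 1 for leaf, 0.8 for stalk and 0.9 for root (two-sided), and 0.1 is the smallest p it can give. This test takes no account of column numbers, which pair the libraries in leaf: there the 3 same-numbered pairs of Va116 and GDH88 were 0.329 apart and the 6 other pairs 0.406. Over all genes tested, the median log2 fold change was -0.10 for leaf, -0.18 for stalk and 0.04 for root, a shift that the values of single genes include. Among the 15 pairs of the 6 materials, the 166 calls of Va116 against GDH88 in leaf ranked 2, after 173 for the highest pair, with a median of 77. The 5 calls in stalk ranked 11 and the 9 in root ranked 9, with medians of 10 and 14. These ranks rest on all libraries, and without the doubtful ones the counts were 9 in stalk and 32 in root.

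Some of the genes called in leaf were present in one material and absent in the other. A gene counts here as present at 1 FPKM or more, and as absent at 0.1 FPKM or less, in each library of a material. In leaf 43 genes were present in Va116 and absent in GDH88 (0.142% of the 30183 present in Va116), and 43 were present in GDH88 and absent in Va116 (0.139% of 31038). Of these, 30 and 36 were among the 166 called. Such genes pass the filter through 1 material alone and had to differ, so their calls are no separate support. The mean level where present ran from 1.25 to 62.8 FPKM for the first list (median 5.01) and from 1.76 to 152 FPKM for the second (median 5.74). In all 3 libraries of the other material, 22 and 23 of them were listed at 0.

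Fewer such genes were found in stalk and root with all libraries. In stalk 14 genes were present in Va116 and absent in GDH88 (0.0488%), and 20 were present in GDH88 and absent in Va116 (0.0666%). In root these were 6 (0.0198%) and 11 (0.0363%). Without stalk GDH88 1 the stalk counts were 46 (0.16%) and 43 (0.139%), and without root GDH88 2 the root counts were 44 (0.145%) and 55 (0.177%). A count over 5 libraries asks less than one over 6: with any 1 library left out, leaf gave 46 to 55 and 47 to 55. In root, leaving out a library other than GDH88 2 gave 8 to 24 and 15 to 21. In stalk other libraries mattered as well, with 51 and 24 genes without Va116 2 and 36 and 41 without Va116 1.

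The leaf lists were then counted in the stalk and root libraries, which had no part in choosing them. Of the 43 genes present only in Va116 leaves, 33, 29 and 29 were at 1 FPKM or more in the stalk libraries Va116 1 to 3, against 23, 1 and 1 in GDH88 1 to 3. In root these were 34, 31 and 35 in Va116, against 0, 29 and 2 in GDH88. Apart from stalk GDH88 1 and root GDH88 2, every GDH88 library had at most 2 of the 43, and every Va116 library had at least 29.

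The list present only in GDH88 leaves behaved in the same way, in the opposite direction. Of its 43 genes, 0, 0 and 10 were at 1 FPKM or more in the stalk libraries of Va116, against 30, 33 and 29 in those of GDH88. In root there were 2, 1 and 3 in Va116, against 32, 11 and 33 in GDH88. Stalk GDH88 1 thus held genes of both leaf lists, 23 and 30, and root GDH88 2 held 29 of the first list and 11 of the second. Stalk Va116 3 was the one Va116 library with more than 3 genes of the second list.

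**Figure D2:**
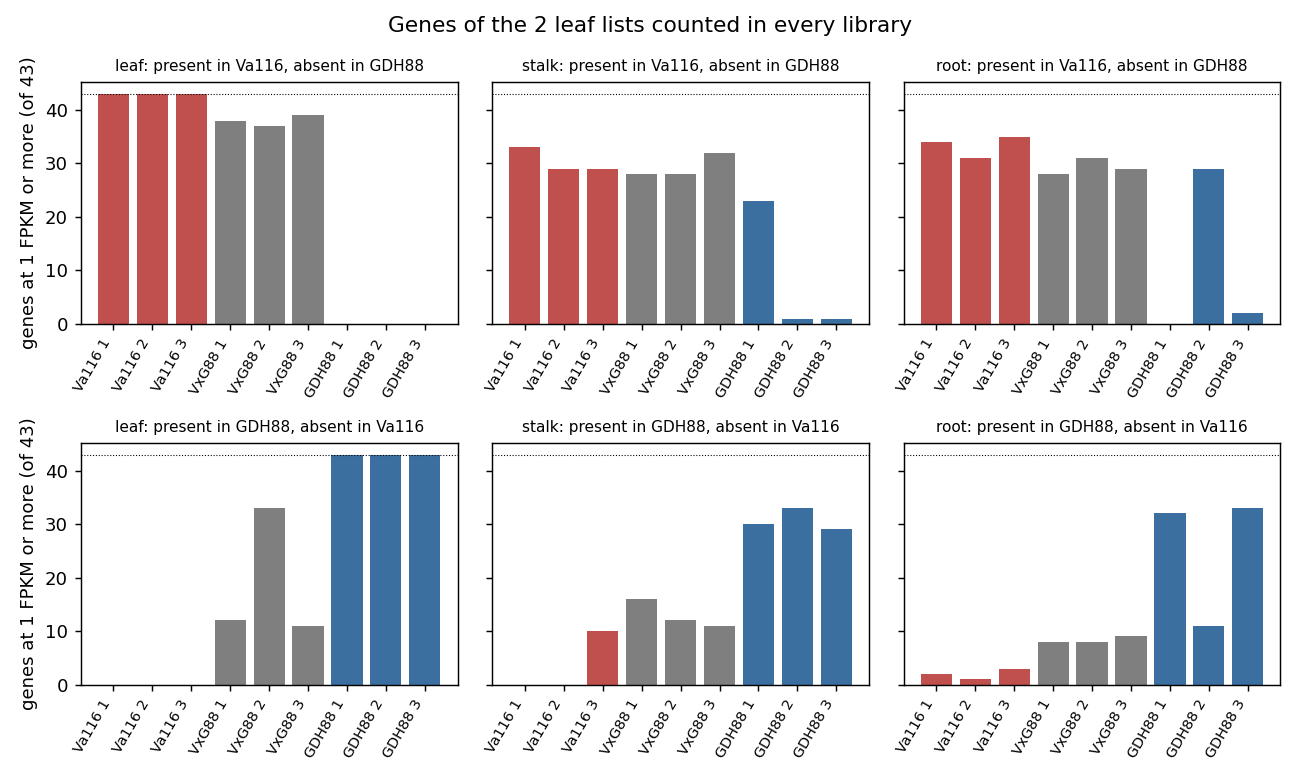
Number of genes at 1 FPKM or more in each library (vertical axis, of 43), for the genes present only in Va116 leaves (top row) and only in GDH88 leaves (bottom row), in leaf, stalk and root, with Va116 in red, VxG88 in grey and GDH88 in blue. In leaf the bars of Va116 and GDH88 are 43 or 0 by the choice of the lists. In stalk and root the top row is at 29 to 35 in Va116 and at 0 to 2 in GDH88, except for stalk GDH88 1 (23) and root GDH88 2 (29).

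Most leaf genes that could be judged elsewhere kept their direction. Without the doubtful library, 20 of the 43 genes present only in Va116 leaves met the same presence and absence rule in stalk and 20 did so in root. A further 8 in stalk and 6 in root were under 1 FPKM in every library, and the rest lay between the limits. Of the 43 present only in GDH88 leaves, 16 met the rule in stalk and 23 in root, while 10 and 9 were under 1 FPKM in every library. None of the 86 genes was present and absent the other way round in stalk or root. In all 3 tissues at once, 0 genes were present in Va116 and absent in GDH88, and 1 was the other way round. Without the 2 doubtful libraries these counts were 14 on 9 scaffolds and 12 on 9 scaffolds, a rise that the choice of those libraries favours.

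The sole gene that met the rule in all 3 tissues with all libraries was Nitab4.5_0014353g0010. It was listed at 0 in all 9 Va116 libraries. GDH88 had 6.43, 2.16 and 6.06 FPKM in leaf, 2.19, 6.22 and 6.61 FPKM in stalk, and 9.07, 1.84 and 4.08 FPKM in root. The lowest values in stalk and root were those of the libraries GDH88 1 and GDH88 2. By itself it was called in leaf (adjusted p = 0.0421 from limma) and not in stalk or root (adjusted p = 0.222 and 0.493), and the leaf call was lost under 9 of 15 alternatives.

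Over the 166 genes called in leaf, stalk and root differed in the same direction for most. Of the 166, 154 differed in the same direction in stalk, 3 in the opposite one and 9 had equal means (mean log2(FPKM + 1), with no filter on the level in stalk). In root these were 148, 10 and 8. That is 92.8% and 89.2%, against 65.7% and 47.6% of all genes tested in leaf. The 68 genes higher in Va116 leaves had a median difference of 1.39 in stalk and 1.51 in root, and the 98 lower genes of -1.72 and -1.38, beside -0.14 and 0.04 for all genes. Without the 2 doubtful libraries the medians were 1.88 and 1.97 for the higher genes and -1.95 and -1.69 for the lower genes. The choice of those libraries favours such a rise, as they did not match signatures that include leaf. The genes are not independent of each other, so these shares are descriptions.

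**Figure D3:**
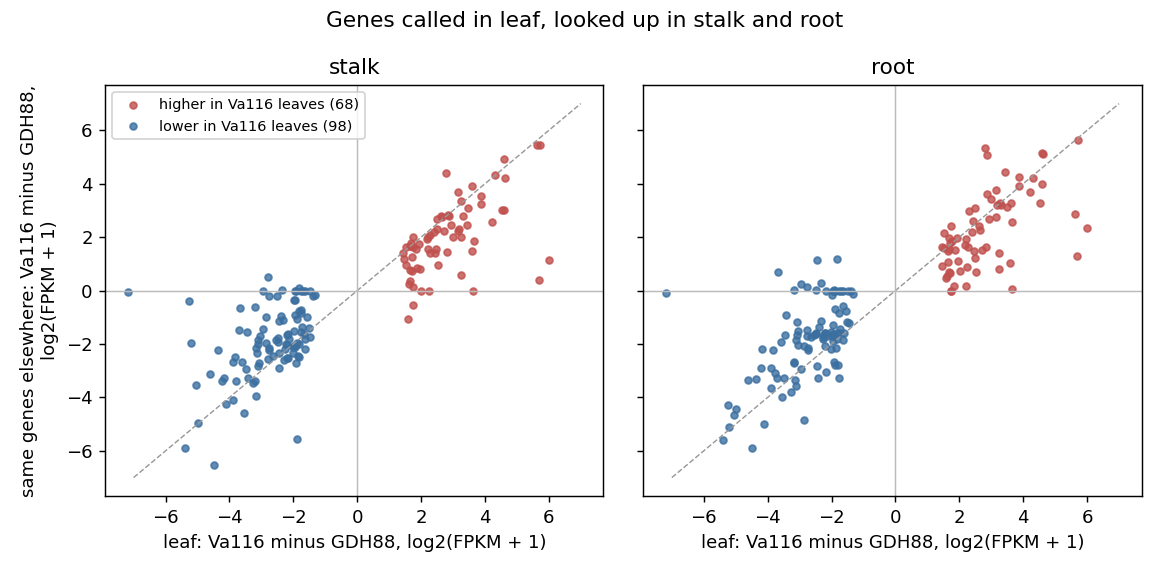
Difference between Va116 and GDH88 in mean log2(FPKM + 1) for the 166 genes called in leaf, with leaf on the horizontal axis and stalk (left, without GDH88 1) or root (right, without GDH88 2) on the vertical axis, and a dashed line where both are equal. Of the 68 genes higher (red) and 98 lower (blue) in Va116 leaves, 152 differ in the same direction in stalk and 147 in root.

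Few genes passed the test in more than 1 tissue. Of the 28340 genes kept in all 3, 89 were called in 1 tissue, 4 in 2 and 1 in all 3, and 0 were called in opposite directions. All 5 stalk calls and 6 of the 9 root calls were also called in leaf in the same direction, where 0.413% and 0.361% of the genes kept in both tissues were called. All 5 stalk calls and 7 of the 9 root calls had passed the filter in their tissue through 1 material alone. Without the 2 doubtful libraries, 22 genes were called in 2 tissues and 3 in all 3. Of the 32 root calls, 28 were then also called in leaf. The choice of those libraries favours such overlap, as they did not match the signatures from the other tissues.

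The test of whether the difference between materials changes with tissue (limma's F test of the interaction, 18 libraries) called 0 of 28340 genes, with 1122 (3.96%) at an unadjusted p under 0.05. Without the 2 doubtful libraries it called 1. The test does not show that the differences are equal. This fit treats the 18 libraries as independent and holds no term for the plant. By the study's methods, the tissues may have come from the same plants, so its p-values may be off. A contrast added after seeing the data, the mean difference over the 3 tissues in the same fit, called 237 genes (0.836%), 95 higher and 142 lower in Va116. Of these, 151 were called in no single tissue, and 84 of the 92 leaf calls kept in all 3 tissues were among them. The leaf values enter the mean, so that overlap is in part built in and does not show sharing between tissues. Without the 2 doubtful libraries 323 were called (1.14%), 132 higher and 191 lower.

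Nitab4.5_0001737g0010 was the gene called in all 3 tissues, lower in Va116 than in GDH88. In leaf it had 0.08, 0.05 and 0 FPKM in Va116, against 42.2, 44.1 and 42.4 FPKM in GDH88. In stalk it had 0.05, 0.05 and 0.17 FPKM, against 30.9, 59.95 and 68.6 FPKM in GDH88, and in root 0.06, 0.06 and 0.11 FPKM, against 60.9, 41.4 and 42.1 FPKM. The groups were far apart in every tissue, and the doubtful libraries stood with the other GDH88 libraries here. Its log2 fold change was -5.40 in leaf (standard error 0.18, adjusted p = 0.000167), -5.56 in stalk (0.33, adjusted p = 0.0124) and -5.49 in root (0.23, adjusted p = 0.00294). The stalk call was lost under 5 of 15 alternatives and the root call under 4 of 15. VxG88 had 17.7 to 34.98 FPKM over its 9 libraries, between the 2 materials in leaf and root.

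Of the 156 genes called in leaf alone, 87 were kept in all 3 tissues, 51 of them higher and 36 lower in Va116. Among those 51, Nitab4.5_0011970g0010 and Nitab4.5_0000697g0180 had the largest log2 fold change. Nitab4.5_0011970g0010 had 409, 419 and 860 FPKM in Va116 leaves, against 4.53, 17.4 and 8.93 FPKM in GDH88 leaves (log2 fold change 5.72, standard error 0.51, adjusted p = 0.00456). It was also abundant in Va116 stalks, at 109, 503.5 and 522 FPKM, against 138, 7.02 and 5.18 FPKM in GDH88. In root it had 407, 664 and 885 FPKM in Va116, against 2.81, 593 and 40.1 FPKM in GDH88. The groups overlapped in stalk and root through the doubtful libraries alone, and neither tissue passed by itself (limma, adjusted p = 0.818 and 0.934). The gene passed on the mean over the tissues (4.504, standard error 0.82, adjusted p = 0.013), which includes the leaf values by which it was chosen.

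Nitab4.5_0000697g0180 had 34.5, 57.5 and 56.5 FPKM in Va116 leaves and was listed at 0 in the 3 GDH88 leaf libraries (adjusted p = 0.000315). In stalk it had 16.2, 108 and 44.9 FPKM in Va116, against 32.1, 0.03 and 0 FPKM in GDH88. In root it had 6.01, 14.7 and 3.03 FPKM, against 0.03, 10.5 and 0.05 FPKM in GDH88. Its neighbour Nitab4.5_0000697g0170 gave the same picture. That gene had 20.7, 42.8 and 14.5 FPKM in Va116 leaves, 20.1, 22.6 and 11.8 FPKM in Va116 stalks and 28.9, 44.8 and 31.1 FPKM in Va116 roots. In GDH88 it was listed at 0 in leaf, and had 34.1, 0 and 0 FPKM in stalk and 0, 34.0 and 0.05 FPKM in root. These 2 genes had the highest level among the 14 present only in Va116 in all 3 tissues without the doubtful libraries.

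Among the 36 lower genes called in leaf alone and kept in all 3 tissues, Nitab4.5_0002256g0020 and Nitab4.5_0000206g0170 fell the most. Nitab4.5_0002256g0020 was listed at 0 in the Va116 leaf and root libraries and had 0, 0 and 1.96 FPKM in Va116 stalks. GDH88 had 22.6, 13.2 and 24.8 FPKM in leaf, 4.08, 5.84 and 5.65 FPKM in stalk, and 8.68, 2.16 and 9.43 FPKM in root. It was called in leaf (adjusted p = 0.000832), and in root once GDH88 2 was left out (adjusted p = 0.0284). The one Va116 library with a value above 0 was stalk Va116 3.

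Nitab4.5_0000206g0170 was detected in both materials and was called lower in Va116 in leaf. It had 1.83, 2.80 and 1.70 FPKM in Va116 leaves, against 50.4, 43.02 and 40.1 FPKM in GDH88 leaves (log2 fold change -3.88, standard error 0.23, adjusted p = 0.000716). In stalk it had 4.69, 3.09 and 4.23 FPKM, against 15.5, 30.3 and 30.9 FPKM in GDH88. In root it had 2.41, 1.80 and 2.47 FPKM, against 23.4, 2.56 and 22.4 FPKM in GDH88. The groups did not overlap in any tissue, although root GDH88 2 lay close to Va116.

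Of the 3 genes called in root alone, Nitab4.5_0000339g0150 and Nitab4.5_0001380g0040 were kept in all 3 tissues, both lower in Va116. Nitab4.5_0000339g0150 had 2.37, 2.31 and 0.52 FPKM in Va116 roots, against 71.0, 53.2 and 81.4 FPKM in GDH88 roots (log2 fold change -4.74, standard error 0.37, adjusted p = 0.0386). Nitab4.5_0001380g0040 had 0.14, 0.07 and 0.33 FPKM, against 12.7, 9.02 and 12.8 FPKM in GDH88 roots (-3.40, standard error 0.23, adjusted p = 0.0267). In leaf and stalk neither passed, with log2 fold changes of -2.94 and -2.24 in leaf and -2.50 and -2.30 in stalk. Their interaction with tissue did not pass (unadjusted p = 0.153 and 0.283, adjusted p = 1 when rounded). Each root call was lost under 9 of 15 alternatives. No gene was called in stalk alone.

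The most abundant genes present only in GDH88 in all 3 tissues, without the doubtful libraries, were Nitab4.5_0003151g0070 and Nitab4.5_0000363g0020. Nitab4.5_0003151g0070 had 0 to 0.06 FPKM in the 9 Va116 libraries. GDH88 had 24.8, 22.8 and 17.6 FPKM in leaf, 47.5, 86.5 and 103 FPKM in stalk, and 46.4, 0 and 75 FPKM in root. Nitab4.5_0000363g0020 had 0 to 0.09 FPKM in the 9 Va116 libraries, against 27.4, 32.1 and 33.6 FPKM in leaf, 16.4, 30.1 and 30.3 FPKM in stalk and 19.9, 0.04 and 23.1 FPKM in root of GDH88. Both were called in leaf (adjusted p = 0.000316 and 0.000258) and in stalk (0.0101 and 0.0124). In root GDH88 2 both were as low as in Va116, and neither passed the filter there.

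**Figure D4:**
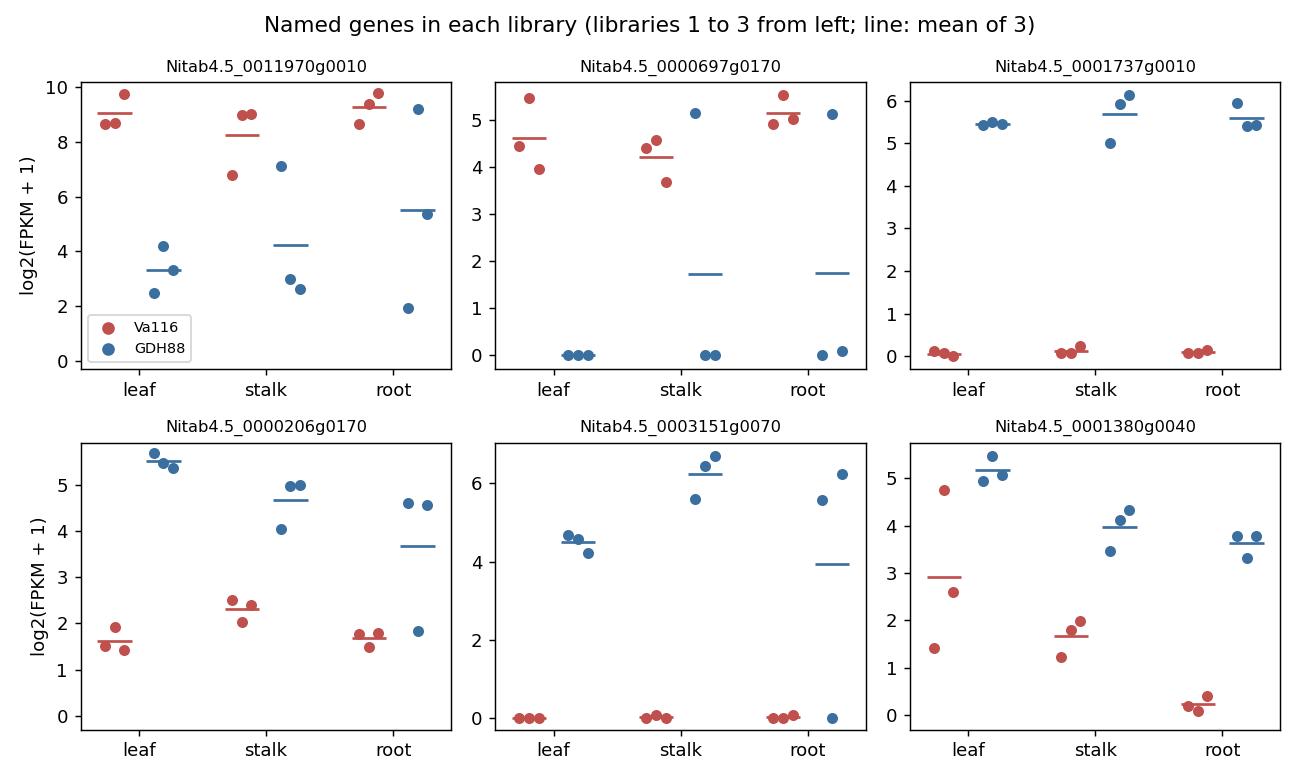
Level of 6 named genes in log2(FPKM + 1) (vertical axes) in leaf, stalk and root, with 1 point per library, Va116 (red) left of GDH88 (blue) and a line at the mean of the 3 libraries. Nitab4.5_0001737g0010 is below 0.2 FPKM in all 9 Va116 libraries and above 30 FPKM in all 9 GDH88 libraries, while the root library GDH88 2 lies at or near the level of Va116 for 4 of the other 5 genes.

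Most genes found in only 1 material lay alone on their scaffold, and some lay beside each other. The 115 genes present in one material and absent in the other in at least 1 tissue, with all libraries, lay on 95 scaffolds. On 86 scaffolds there was 1 such gene, and 29 genes shared the other 9. How many would share a scaffold in a random draw of genes was not tested. No scaffold held genes of both directions, whereas without the doubtful libraries, with 186 such genes on 158 scaffolds, 2 scaffolds did. The rule for naming scaffolds rested on genes found in all 3 tissues, and since there was 1 such gene, the 4 scaffolds with at least 3 were chosen after the values had been seen.

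Nitab4.5_0000697 held 9 genes present only in Va116, between its gene 20 and its gene 200 of 25 listed genes (genes are numbered in steps of 10). In leaf 11 of its genes were kept, among them these 9, which had to be higher in Va116, and 8 of the 9 were called. The other 2 also had higher means in Va116 (log2 fold changes 1.22 and 3.34) but were not called (limma, adjusted p = 0.308 and 0.244). Over all genes tested in leaf, 34.7% had higher means in Va116 and 0.493% were called. All 9 were at 1 FPKM or more in each Va116 leaf library and none in the GDH88 leaf libraries. In stalk 7, 7 and 7 of the 9 were at 1 FPKM or more in Va116, against 7, 0 and 0 in GDH88. In root there were 8, 8 and 8 in Va116, against 0, 7 and 0 in GDH88. The doubtful libraries thus differed from the other GDH88 libraries across the scaffold, but the scaffold does not single out Va116. Each library of Basma, HxB and Hongda had 7 of the 9 in stalk and 7 or 8 in root. In the label check root Basma 1 went against its label (r = 0.14 with Basma, 0.41 with HxB). Stalk Basma 1 matched Basma weakly (r = 0.23). "Present only" here compares Va116 and GDH88 alone. VxG88 had 7 to 9 of the 9 in each of its libraries, of which leaf VxG88 2 and stalk VxG88 1 went against their labels in the check above.

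Nitab4.5_0000363 held 4 genes present only in GDH88, which are the first 4 of its 33 listed genes. The other 17 genes kept in leaf had log2 fold changes from -1.80 to 1.13, and none was called. In leaf 0 of the 4 were at 1 FPKM or more in any Va116 library and all 4 in each GDH88 library. In stalk there were 0 in each Va116 library, against 2, 2 and 2 in GDH88, and in root 0, against 3, 0 and 3. The 4 genes do not single out GDH88: Basma had 3, 3 and 4 in leaf, 2 in each stalk library and 3 in each root library. Each Hongda and HxB library had 0, as had VxG88 except for leaf VxG88 2 with 3. Nitab4.5_0001328 held 3 genes present only in Va116, all called in leaf, where such genes had to differ. Its 3 other genes kept in leaf had log2 fold changes from -0.14 to 0.13. Each library of Basma, HxB, Hongda and VxG88 had 2 or 3 of the 3 present only in Va116 at 1 FPKM or more. Nitab4.5_0001740 held 3 genes present only in GDH88, all called in leaf, where they too had to differ. Its 3 other genes kept in leaf had log2 fold changes from -1.58 to 0.29. Each Basma library had 2 or 3 of the 3 present only in GDH88 at 1 FPKM or more, and each Hongda and HxB library had 0. VxG88 had 0 in each library except leaf VxG88 2, which had 3.

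**Figure D5:**
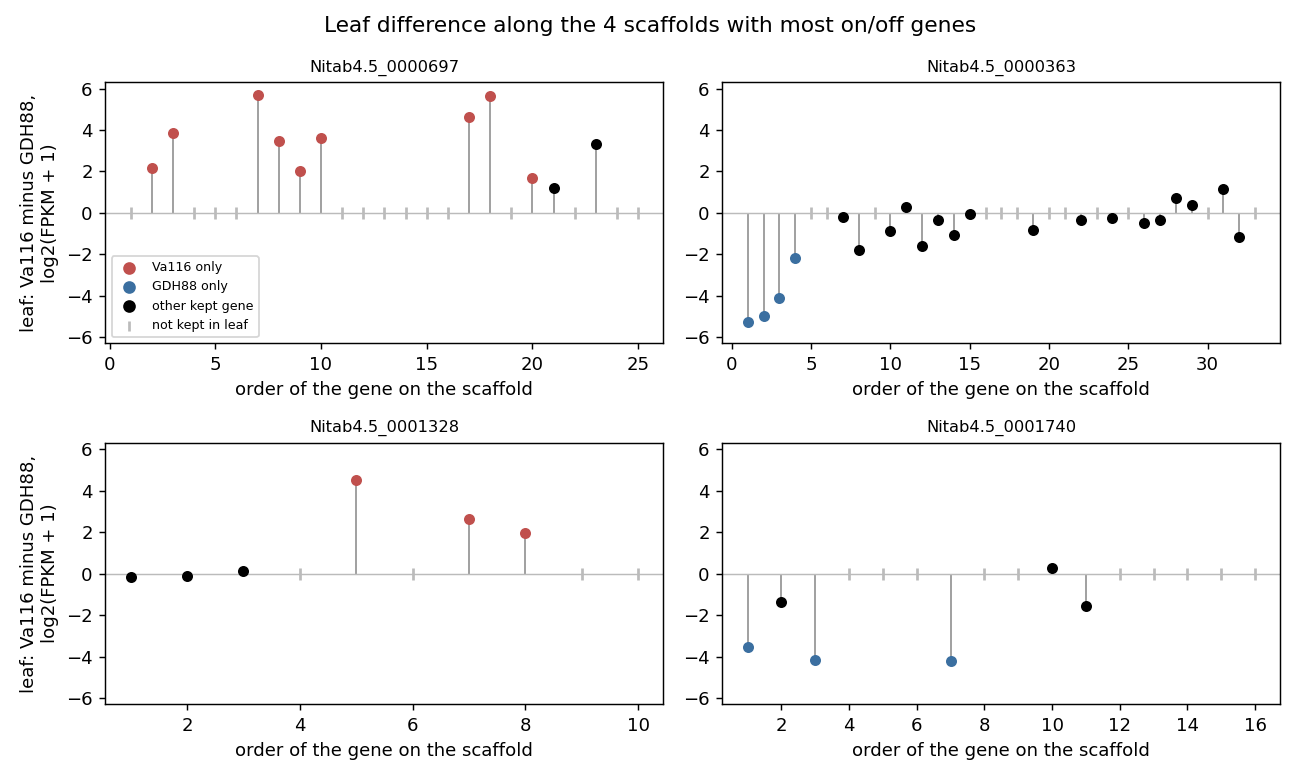
Leaf difference between Va116 and GDH88 in log2(FPKM + 1) (vertical axes) of the genes on 4 scaffolds in their order (horizontal axes), with genes present only in Va116 in red, only in GDH88 in blue, other kept genes in black and genes not kept in leaf as grey ticks. The 9 red genes of Nitab4.5_0000697 spread over most of the scaffold, while the 4 blue genes of Nitab4.5_0000363 sit together at its start.

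The glutathione S-transferases couple glutathione to toxic or reactive molecules, and the Tau and Phi classes are the large plant classes of detoxifying enzymes. The study listed 59 NtGST members, of which leaf kept 40 for testing, stalk 37 and root 47. None was called in limma in any tissue (smallest adjusted p 0.795, 0.824 and 0.817), and none was present in one material and absent in the other. The test rarely called a log2 change of 1 in simulated data, so differences of that size may be missed. At an unadjusted p under 0.05 leaf and stalk had 0 each, and root had 5 of 47, 4 higher and 1 lower in Va116, against 5.31% of all genes in root. Without the doubtful library there were 4 of 37 in stalk and 5 of 47 in root, against 5.12% and 7.29% of all genes. In root the means of 29 of the 32 Tau members tested were higher in Va116 (median log2 fold change 0.47), against 55.2% of all genes tested there. Of the other classes in root, the means of 2 of 2 Theta, 3 of 4 Zeta and 1 of 2 TCHQD members were higher in Va116, and those of 0 of 3 Phi, 0 of 3 dehydroascorbate reductase (DHAR) and 0 of 1 Lambda members. In leaf 8 of 23 Tau members had higher means in Va116 (median -0.22), against 34.7% of all genes, and in stalk 16 of 22 (median 0.73), against 29.2%. Tau members are related genes, some on the same scaffold, and are not independent of each other. These counts are therefore descriptions, and those of stalk and root include the doubtful libraries.

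The smallest p-values of the family were in root. NtDHAR3, which belongs to the dehydroascorbate reductases that regenerate ascorbate, had 56.1, 50.8 and 35.4 FPKM in Va116 roots, against 120, 85.7 and 80.1 FPKM in GDH88 roots (log2 fold change -0.996, standard error 0.29, adjusted p = 0.817). NtGSTU6, a Tau member, had 4.16, 2.50 and 1.79 FPKM, against 0.47, 1.57 and 0.77 FPKM in GDH88 roots (0.97, standard error 0.33, adjusted p = 0.872). NtGSTU15, also Tau, had 177, 311 and 72.2 FPKM, against 49.6, 50.3 and 64.0 FPKM in GDH88 roots (1.53, standard error 0.52, adjusted p = 0.882). The groups did not overlap for these 3 genes, as for 10.7% of all genes tested in root, and the differences did not pass over the 34519 genes tested.

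In leaf the 3 members with the smallest p had negative log2 fold changes and did not pass. NtGSTU1 had 2.77, 8.73 and 3.05 FPKM, against 5.86, 27.7 and 11.5 FPKM in GDH88 leaves (log2 fold change -1.35, standard error 0.59, adjusted p = 0.795). NtGSTU34, a Tau member like NtGSTU1, and NtGSTL3, of the Lambda class, had log2 fold changes of -0.54 and -0.52. In stalk the 3 with the smallest p had positive log2 fold changes without passing: NtTCHQD1 with 0.48, NtGSTL3 with 1.08 and NtGSTU11 with 1.66. NtGSTU11 had 31.7, 143 and 224 FPKM in Va116 stalks, against 62.5, 23.9 and 20.2 FPKM in GDH88 stalks, where Va116 1 and GDH88 1 overlapped. How reads were divided between near-identical members is not known here, so levels of close paralogs are uncertain.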

How the data were processed

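RNA of leaf, stalk and root after topping was sequenced as paired-end TruSeq libraries. The authors deposited 1 table per tissue of FPKM values, and per the submitters' processing notes HISAT2, StringTie and RSEM were run, in versions and with a genome build not given in the sources used here. This unit rests on a legend of the study, and the even sums per library would also fit TPM. Low values were checked for whole-read steps: 18.8% to 20.5% of ratios lay within 0.1 of a whole number, against 20% by even spread, so no counts were recovered. All deposited columns were mapped by material and tissue, and no 2 libraries were identical.

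Differences were fitted with limma 3.58.1 (R 4.3.3) to log2(FPKM + 1) with a variance trend, over genes reaching 1 FPKM in 3 or more of 6 libraries. These gene sets were kept when a library was left out. The fit of 1 tissue was tested on simulated data. The interaction was fitted over 18 libraries, and that fit was not tested in this way. Named genes are up to 2 per direction with the largest fold change among genes called in all 3 tissues, or called in 1 tissue alone and kept in all 3, up to 2 with the highest level among genes found in 1 material in all 3, and the NtGST members with the 3 smallest p-values per tissue. Genes named from counts without the doubtful libraries, the scaffolds and the mean over tissues were added after the data had been seen. The rule and the lists were chosen with earlier results of these data known. Alternatives were pseudocounts of 0.1 and 0.01, other filters and scalings, no trend, a block, all 18 libraries of a tissue, other presence limits and each library left out.

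Column numbers were checked for pairing. In leaf, same-numbered Va116 and GDH88 libraries deviated together (r = 0.361 to 0.567), so the numbers pair them there, from the data alone. In stalk (-0.066 to 0.469) and root (-0.227 to 0.145) they do not.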

Additional observations from a re-analysis of the deposited data

How the results depend on the processing

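The leaf count of 166 calls was 291 with all 18 leaf libraries in 1 fit. The replicate block, which pairs column numbers, gave 184 in leaf, 0 in stalk, 0 in root and 0 genes called in all 3 tissues. In stalk, 5 calls became 8 with pseudocount 0.1, 3 with no filter and 59 with 18 libraries in 1 fit. In root, 9 became 1 with pseudocount 0.01, 1 with no filter and 16 with 18 libraries. Leaving out 1 library gave leaf 70 to 111 calls, stalk 0 to 15 and root 0 to 32. The genes called in all 3 tissues (1) became 3 with 18 libraries per fit, 3 without the 2 doubtful libraries and 0 to 2 without 1 library. The interaction count of 0 became 2 with pseudocount 0.1, 5 with pseudocount 0.01, 30 with no filter, 1 without the 2 doubtful libraries and 0 to 10 without 1 library. The count on the mean over tissues (237) became 370 with no filter and 166 to 396 without 1 library.

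Genes present only in Va116 in leaf (43) numbered 22 with absence set at 0, 72 with absence under 0.5 FPKM and 46 to 55 without 1 library. In stalk (14) they numbered 9 with presence at 2 FPKM and 20 to 51 without 1 library. In root (6) they numbered 18 with absence under 0.5 FPKM, 2 with presence at 2 FPKM and 8 to 44 without 1 library. In all 3 tissues (0) they numbered 14 without the 2 doubtful libraries and 0 to 1 without 1 library. Genes present only in GDH88 in leaf (43) numbered 23, 78 and 47 to 55 under the same absence limits and without 1 library. In stalk (20) they numbered 11, 46 and 24 to 43, and in root (11) 31 with absence under 0.5 FPKM and 15 to 55 without 1 library. In all 3 tissues (1) they numbered 4 with absence under 0.5 FPKM, 0 with presence at 2 FPKM, 12 without the 2 doubtful libraries and 1 to 12 without 1 library.

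The difference of distances changed sign in leaf with quantile normalization (-0.00206) and median-ratio scaling (-0.00144), and in stalk (-0.00309 and -0.0067). Without 1 library the leaf value ran from -0.0345 to 0.0512, the stalk value from -0.0162 to 0.110 and the root value from -0.0227 to 0.0243, with exact permutation p from 0.1 to 1. Of 795 alternatives for single named genes, 733 kept the direction and the side of the threshold, 47 lost the call, 6 gained it and 9 changed sign. All 9 were NtGST members with 1 library left out. Their leave-one-out log2 fold changes ran from -0.22 to 0.46 for NtGSTU11, from -0.0059 to 0.30 for NtDHAR3 and from -0.75 to 0.062 for NtGSTU15 in leaf, from -0.68 to 0.30 for NtGSTU1 and from -0.41 to 0.15 for NtGSTU34 in stalk, and from -0.074 to 0.52 for NtTCHQD1 in root. The cause of these changes was not tested.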

Other observations

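The genes that were present in only one of Va116 and GDH88 in leaf were found in part in the other materials. Of the 43 present only in Va116 leaves, the leaf libraries of VxG88 had 37 to 39 at 1 FPKM or more, those of HxB 33 to 36, those of Hongda 29 each and those of Basma 25 to 29. Of the 43 present only in GDH88 leaves, Basma had 27 to 32, HxB 19 to 20 and Hongda 14 to 16. The leaf libraries VxG88 1 and 3 had 12 and 11 of this list and VxG88 2 had 33. In the label check leaf VxG88 2 went against its label (r = -0.03 with VxG88, 0.42 with Va116), as did stalk VxG88 1 (-0.23 with VxG88, 0.78 with HxB), and both are in the ranges given. In stalk and root VxG88 had 11 to 16 and 8 to 9 of it, against 28 to 32 and 28 to 31 of the list present only in Va116.

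Among the 15 pairs of materials, the 86 leaf genes present in one and absent in the other of Va116 and GDH88 ranked 3 (range of the pairs 15 to 99, median 50). The 34 in stalk ranked 7 (5 to 69, median 34) and the 17 in root ranked 13 (7 to 73, median 31). The pairs share materials and some of their libraries also go against their labels, so these ranks were not tested.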
